A study of Zea mays with 448 samples.

Results

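The genes described here lie beside teosinte branched1 (tb1) on chromosome 1 of maize. They were chosen by position and depth only: every segregating site of the gene falls between 260000000 and 272000000 on chromosome 1 (B73 AGPv2), and the gene has 100 or more F1 reads in at least 1 tissue. tb1 itself was left out. Of 365 gene models with sites in these 12 Mb, 165 met the rule, out of 19903 genes at that depth in the whole series. The ear held 154 of them, the leaf 152 and the stem 160, and 144 met the depth in each tissue.

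tb1 encodes a TCP transcription factor that represses the outgrowth of branches, and it is one of the best known genes of maize domestication. Its maize allele is more strongly expressed than its teosinte allele, and the sequence upstream of it carries the change that was selected. Selection on one site can carry a stretch of the flanking chromosome along with it, so neighbouring genes may share the haplotype of a selected gene without being targets themselves.

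RNA of maize inbreds, teosinte inbreds (*Zea mays* ssp. *parviglumis*) and their F1 hybrids was sequenced from the immature ear, the leaf of v4 seedlings and the seedling stem with the shoot apical meristem. In an F1, both alleles share 1 cell and its trans-acting factors. The ratio of reads that carry the maize allele to reads that carry the teosinte allele is therefore read here as a cis difference. The study says that its alignment probably keeps some bias, and that a bias toward maize could be an artifact. The F1s came from 6 maize inbreds (B73, CML103, Ki3, Mo17, Oh43 and W22) and 9 teosinte inbreds (TIL01, TIL03, TIL05, TIL09, TIL10, TIL11, TIL14, TIL15 and TIL25). All groups were grown untreated, in growth chambers and later in a greenhouse, and each parent line is a single inbred. The study states that TIL03 and TIL09 carry the maize haplotype at tb1. The 9 crosses of these inbreds therefore form 1 group here, and the 20 crosses of the other 7 teosinte inbreds form the other. Crosses that share a parent are not independent of each other.

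The 29 crosses were measured in 172 F1 libraries. Library totals at segregating sites ran from 815215 to 2688098 reads in ear (59 libraries), from 1061802 to 2999638 in leaf (57 libraries) and from 1273915 to 3181176 in stem (56 libraries). Tissue markers followed the labels in part. The C4 photosynthesis gene GRMZM2G306345 (pyruvate orthophosphate dikinase) had a median CPM (counts scaled to a common library total) of 3189 in leaf, 2.00 in ear and 14.7 in stem. The floral gene zag1 (GRMZM2G052890) had a median CPM of 18.5 in ear and 0 in leaf and stem. The inflorescence gene ramosa1 (GRMZM2G003927) had a median of 0 in each tissue, so it marked no tissue here.

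Of the 172 libraries, 11 stood apart from the rest and were set aside for comparison after their values were seen. In the other 161 libraries, the median log2 ratio of maize to teosinte reads over the flanking genes ran from -0.19 to 0.29. All 6 libraries of Oh43xTIL15 lay above that range, from 0.35 to 0.59, while their medians over all genes were 0.02 to 0.07. Of the 85 flanking genes with 20 or more reads in ear replicate 1 of this cross, 67 had more maize reads and 17 had more teosinte reads. Oh43xTIL15 was thus shifted toward maize around tb1 and hardly at all over the genome.

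Leaf replicate 1 and stem replicate 1 of W22xTIL14 lay on the opposite side, with medians of -1.03 and -1.02. In that leaf library 64 of 69 flanking genes had more teosinte reads, and in that stem library 68 of 72 did. The other leaf and stem libraries of W22xTIL14 had medians of 0.00 and -0.06, so the shift was in 1 library of each tissue and not in the cross as a whole. In B73xTIL01, 3 libraries leaned toward maize over the whole genome: ear replicate 1 had a median of 0.46 over all genes, leaf replicate 1 had 2.55 and stem replicate 2 had 2.47. What made these libraries differ was not tested, and the main counts below are given with and without the 11.

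**Figure D1:**
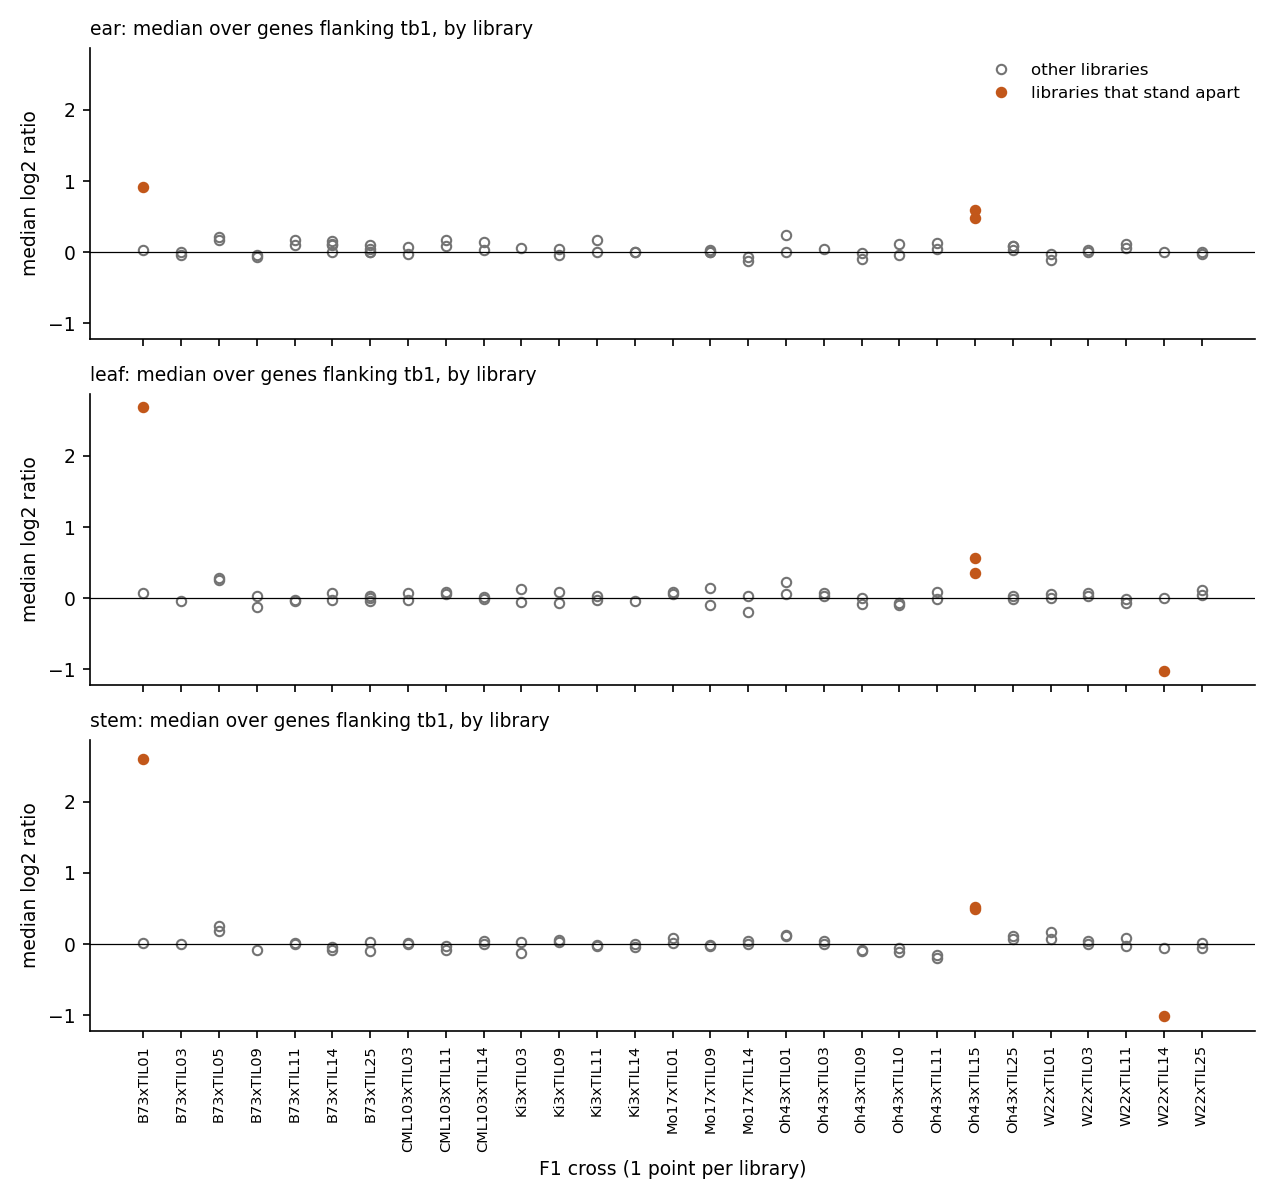
Median log2 ratio of maize to teosinte reads over the genes flanking tb1, 1 point per F1 library and 1 column per cross, for ear, leaf and stem. The 11 filled points are the libraries that stand apart: those of Oh43xTIL15 between 0.35 and 0.59, 2 of W22xTIL14 near -1 and 3 of B73xTIL01 above the rest.

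Along chromosome 1 in bins of 10 Mb, both shifts began close to the region and ran on past it. In the 2 shifted W22xTIL14 libraries the bins from 250 Mb to the end of the chromosome had medians between -0.78 and -1.05, and the bins before that lay around 0. In Oh43xTIL15 the medians rose from the bin that starts at 240 Mb, and in the last bin, with only 6 to 9 genes, those of ear and leaf were below 0. The shifts thus covered bins on both sides of tb1 and not single genes.

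**Figure D2:**
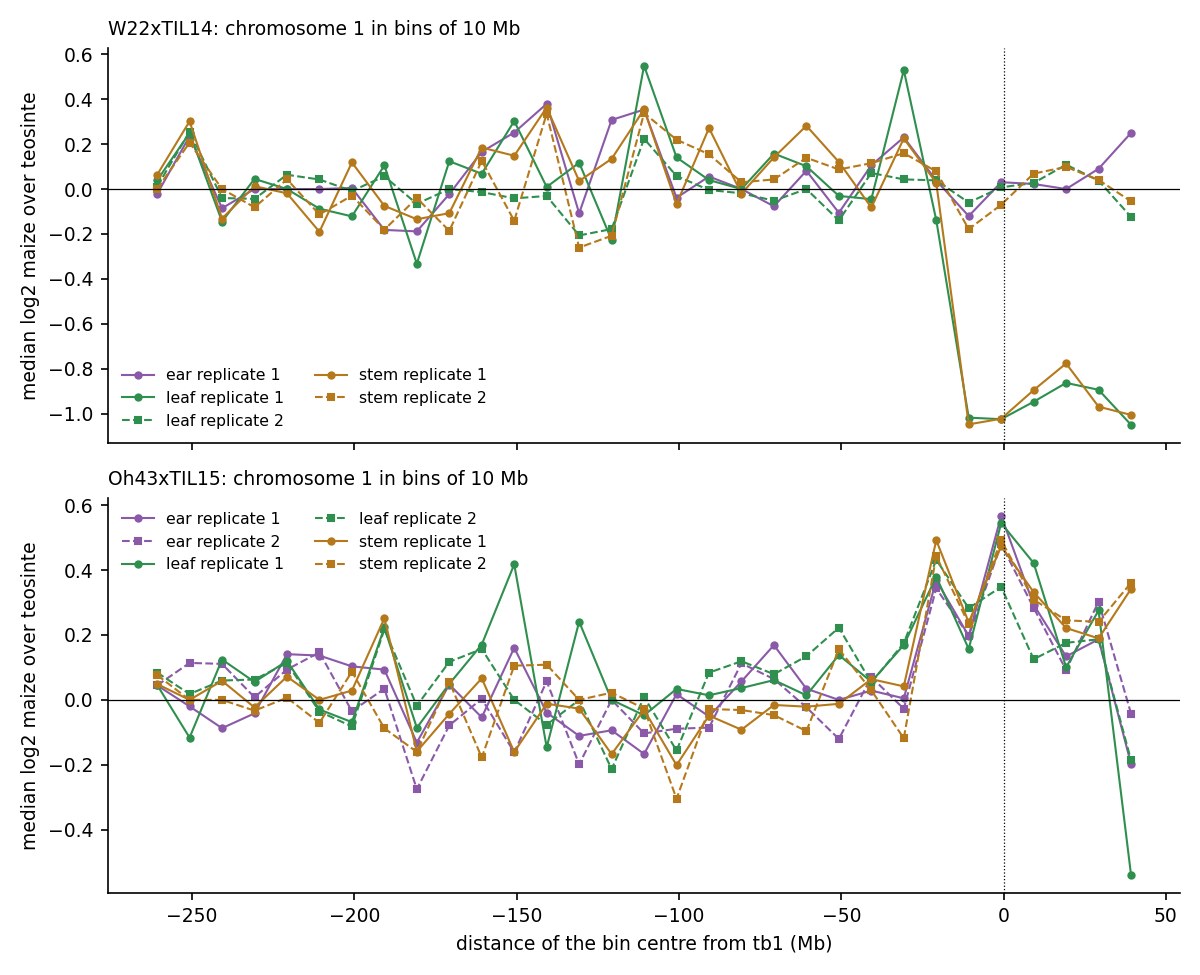
Median log2 ratio of maize to teosinte reads per 10 Mb bin of chromosome 1, by distance of the bin centre from tb1 (Mb), with 1 line per library of W22xTIL14 (top) and Oh43xTIL15 (bottom). Leaf and stem replicate 1 of W22xTIL14 drop to about -1 near tb1, while the other libraries of that cross stay near 0.

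The first question was how many of the flanking genes have a cis difference, with the cross as the unit. In ear 21 of 154 members (13.6%) had an allele ratio that differed from 1 at an adjusted p under 0.05, against 15.0% of the 17679 genes tested. In leaf 18 of 152 (11.8%) did, against 13.0% of all genes, and in stem 17 of 160 (10.6%) did, against 12.8%. Without the 11 libraries the counts were 23 of 153 in the ear (15.0%), 19 of 150 in the leaf (12.7%) and 21 of 158 in the stem (13.3%), against 14.6%, 12.7% and 13.0% of all genes. The share of genes with a called allele ratio beside tb1 was thus close to that of all genes in each tissue, with these libraries and without them.

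The maize allele was the higher one in 15 of the 21 ear genes, 12 of the 18 leaf genes and 13 of the 17 stem genes. As shares of the members these were close to the background, in which 9.34% of all genes in the ear, 8.82% in the leaf and 8.58% in the stem had a higher maize allele. The teosinte allele was higher in 6, 6 and 4 members, against 5.65%, 4.19% and 4.26% of all genes. With the 11 libraries left out, the maize allele was higher in 14, 12 and 13 members, against 8.92%, 7.89% and 7.83% of all genes. The teosinte allele was then higher in 9, 7 and 8 members, against 5.72%, 4.85% and 5.18% of all genes. As shares of the members these were again close to the background. The calls were then split more evenly over the members and over all genes alike, so this change is not particular to the members. The median log2 ratio over the members was 0.06 in the ear, 0.04 in the leaf and 0.03 in the stem, beside 0.04, 0.07 and 0.06 over all genes. The typical flanking gene therefore had nearly equal expression of both alleles.

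The binomial test on reads summed over crosses, which takes every read as independent, called 71 members in the ear (46.1%), 78 in the leaf (51.3%) and 98 in the stem (61.3%) at a q-value of 0.005. Over all genes it called 56.0%, 58.7% and 59.3%. It called 72, 72 and 90 members without the 11 libraries, against 55.6%, 57.2% and 57.7% of all genes. By this test the maize allele was higher in 44, 50 and 57 members, against 32.0%, 35.1% and 35.3% of all genes, and the teosinte allele in 27, 28 and 41, against 24.0%, 23.7% and 24.1%. In both directions the members thus lay below the background in ear and leaf and near it in stem.

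By distance from tb1 the counts varied between tissues. Within 1 Mb, 3 of 19 members were called in the ear, 4 of 21 in the leaf and 3 of 21 in the stem. Between 1 and 3 Mb the counts were 10 of 61, 6 of 61 and 5 of 62, and beyond 3 Mb they were 8 of 74, 8 of 70 and 9 of 77. Within 1 Mb every called gene lay at lower coordinates than tb1, and at higher coordinates 0 of 5 members in the ear, 0 of 6 in the leaf and 0 of 7 in the stem were called. In ear the outer genes also differed by side, with 7 of 35 called below tb1 and 1 of 39 above it. With the 11 libraries left out, the counts within 1 Mb were 3 of 19, 6 of 20 and 3 of 20, and 1 gene above tb1, GRMZM2G093849, was among those called in leaf. The ear count of outer genes above tb1 was then 4 of 39. No test of position was made, and the counts by side thus depend in part on these libraries.

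**Figure D3:**
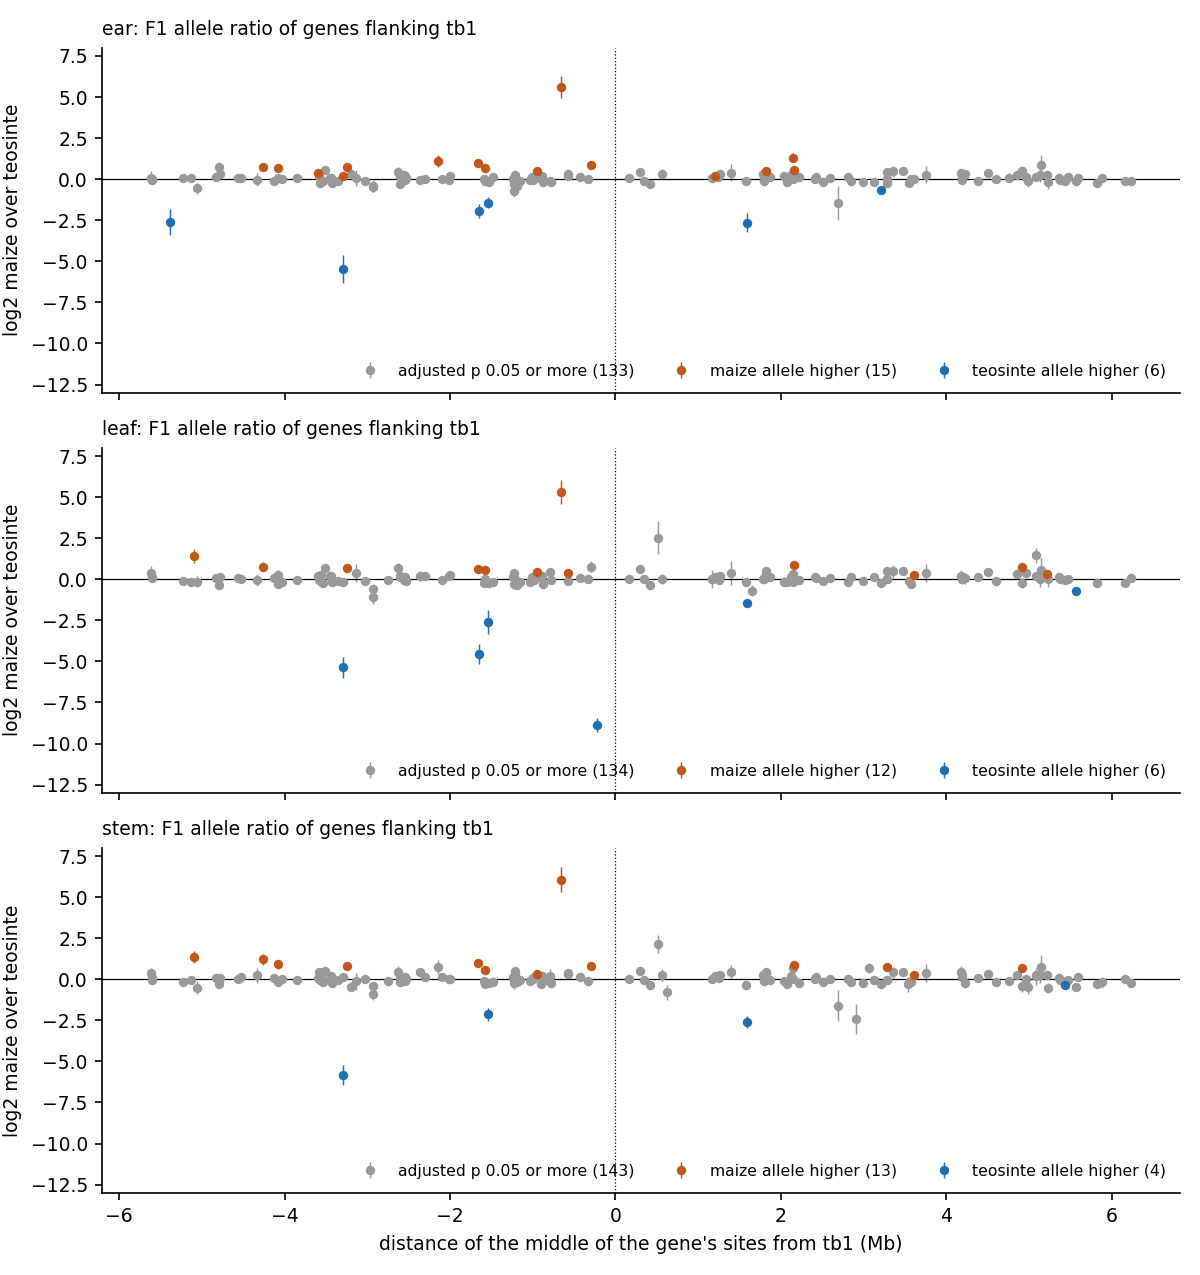
Fitted log2 ratio of maize to teosinte allele (± SE) for every flanking gene against the distance of its sites from tb1 (Mb), in ear (154 genes), leaf (152) and stem (160), with genes called toward maize in orange and toward teosinte in blue. Of the grey genes, which number 133, 134 and 143, 125, 123 and 130 have a ratio within 0.5 of 0, and 1, 3 and 3 have a ratio of 1 or more in size.

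Over the 144 genes with depth in each tissue, 118 were called in none, 13 in 1 tissue, 3 in 2 and 10 in each of the 3. None of those called in more than 1 tissue had opposite signs. Of the 10, the maize allele was higher in 7 and the teosinte allele in 3. Of 143 genes with depth without the 11 libraries, 111 were called in none, 16 in 1, 6 in 2 and 10 in each, again with 7 toward maize and 3 toward teosinte. The overlap and the signs were counted over members only. They are a description and were not set against all genes, so whether this overlap is unusual is not shown.

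The nearest members on the lower side were GRMZM2G015355, GRMZM2G062045 and GRMZM2G147332. GRMZM2G015355 (sites 265523158 to 265523350, 223.9 kb from tb1) met the depth in leaf only, and its 3 sites gave reads in 7 leaf crosses, each with B73 as the maize parent. In each of the 7 the B73 allele had 0 reads, and the teosinte allele had between 87 reads in B73xTIL03 and 409 in B73xTIL14. The sum was 0 maize to 1795 teosinte reads, which puts the teosinte allele at least 598-fold higher when 3 reads are taken as the floor of the sum. The fitted log2 ratio was -8.85 ± 0.44 (SE), adjusted p = 0.0012, and it was not called by DESeq2. Since no maize read was seen, the fitted value and its SE do not measure the size of the difference. The teosinte parents in these crosses were TIL01, TIL03, TIL05, TIL09, TIL11, TIL14 and TIL25, so the missing B73 reads did not depend on the teosinte parent, TIL03 and TIL09 included.

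GRMZM2G062045 (sites 265448235 to 265451663, 297.2 kb from tb1) had 1173 maize and 700 teosinte reads in ear. By cross its log2 ratio ran from -0.26 in Oh43xTIL09 through a median of 0.59 to 3.08 in Ki3xTIL14. The maize allele was higher in 19 of 23 crosses with 20 or more reads. The fitted value was 0.86 ± 0.15 (adjusted p = 2.2e-04) in ear, and 0.81 ± 0.18 (adjusted p = 0.0024) in stem, where 19 of 24 crosses had more maize reads. In leaf the value was 0.76 ± 0.33 (adjusted p = 0.12), and crosses ran from -1.23 to 6.15. The maize allele of this gene was thus the higher one in ear and stem, with crosses that overlap 0. With only the deepest site of the gene the ear and stem calls were lost (adjusted p = 0.16 and 0.17).

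GRMZM2G147332 (325.5 kb from tb1) was balanced. It had 1451 maize and 1497 teosinte reads in ear, and log2 ratios of 0.02 ± 0.08 in ear, 0.02 ± 0.11 in leaf and -0.11 ± 0.09 in stem, none of them called.

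On the other side, the nearest member was GRMZM2G704032 (161.9 kb), with 1061 maize and 978 teosinte reads in ear and log2 ratios of 0.07 ± 0.10 in ear, 0.04 ± 0.12 in leaf and 0.01 ± 0.13 in stem. It had sites in 16 crosses, and none of them was a cross of TIL03 or TIL09. The next, GRMZM2G093849 (298.8 kb), had more maize reads in 12 of 22 crosses in the ear, 20 of 23 in the leaf and 16 of 22 in the stem. Its log2 ratios were 0.41 ± 0.18 (adjusted p = 0.11), 0.63 ± 0.22 (adjusted p = 0.054) and 0.47 ± 0.18 (adjusted p = 0.080). Its highest leaf value, 195 maize to 0 teosinte reads, came from Oh43xTIL15. Without the 11 libraries its leaf value was 0.44, adjusted p = 0.041, so this call depends on libraries that stand apart.

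DWARF8 (GRMZM2G144744, sites 266094795 to 266097835, 349.1 kb) encodes a DELLA protein that represses gibberellin signalling. It had 1487 maize and 1646 teosinte reads in ear, and in 8 crosses the log2 ratio ran from -0.48 to 0.40. Its fitted values were -0.13 ± 0.14 in ear, 0.02 ± 0.21 in leaf and -0.05 ± 0.16 in stem. No cis difference was detected for DWARF8 at this depth.

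Of the other members within 1 Mb, GRMZM2G118003 (947.1 kb below tb1) was called in each tissue, and it is named here after its values were seen. It had 20094 maize and 15104 teosinte reads in ear, and its crosses ran from -0.14 to 1.14 with a median of 0.57. The maize allele was higher in 20 of 23 crosses. Its log2 ratio was 0.51 ± 0.08 (adjusted p = 5.5e-05) in ear, 0.46 ± 0.08 in leaf and 0.33 ± 0.08 in stem. GRMZM2G042133 (658.2 kb below) also had a call in each tissue, but nearly all of its reads came from 1 cross: Mo17xTIL09 gave 692 maize and 0 teosinte reads of the 710 and 4 in ear. DESeq2 called it in no tissue. Opaque10 (GRMZM2G346263, 790.6 kb below), known for an opaque kernel mutant, was called in no tissue, with log2 ratios of -0.12 ± 0.21 in ear and 0.47 ± 0.17 in leaf (adjusted p = 0.063). Its leaf value was 0.52 without the 11 libraries, and called (adjusted p = 0.045).

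Farther out, GRMZM2G068471 (sites 264089764 to 264091547, 1656.5 kb below tb1) combined high depth with a strong bias toward maize. In ear it had 13572 maize and 6493 teosinte reads, and every one of 25 crosses had more maize reads. Its log2 ratio was 0.97 ± 0.13 (adjusted p = 4.5e-06) in ear, 0.62 ± 0.12 (adjusted p = 5.6e-04) in leaf and 0.97 ± 0.13 (adjusted p = 9.2e-06) in stem. This call held in each tissue under every alternative tried.

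By teosinte inbred, the ear ratio of GRMZM2G068471 fell into a low and a high set. The inbreds TIL25, TIL03 and TIL09 had log2 ratios of 0.08, 0.26 and 0.35. The other 6 lay at 1.19 for TIL10, 1.24 for TIL15, 1.28 for TIL05, 1.45 for TIL11 and TIL14 and 1.47 for TIL01. By cross the 9 values of the low set ran from 0.00 to 0.48 and the 16 of the high set from 1.05 to 1.85, so the sets did not overlap in ear. They overlapped in leaf (-0.13 to 0.51 and -0.06 to 1.73) and in stem (-0.11 to 0.83 and 0.41 to 2.19). The sets were formed from these values, so no test of them is given.

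GRMZM2G368658, whose sites start just beyond those of GRMZM2G068471, went the opposite way at low depth. It had 26 maize and 115 teosinte reads in ear and 1 and 113 in leaf, with log2 ratios of -1.94 ± 0.45 (adjusted p = 0.0034) and -4.55 ± 0.58 (adjusted p = 0.0035). Whether reads of these neighbours can be assigned to the wrong gene was not tested.

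GNAT19 (GRMZM2G123159, 1580.9 kb below), which encodes a GCN5-related N-acetyltransferase, had 2552 maize and 1693 teosinte reads in ear. The maize allele was higher in 21 of 24 crosses in the ear, 21 of 25 in the leaf and 22 of 25 in the stem. Its log2 ratio was 0.68 ± 0.14 (adjusted p = 0.0016) in ear, 0.57 ± 0.16 (adjusted p = 0.016) in leaf and 0.57 ± 0.15 (adjusted p = 0.0097) in stem. The highest cross in each tissue was Oh43xTIL15, at 3.87, 4.31 and 4.45.

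GRMZM2G066749 (2161.8 kb above) had sites in all 29 crosses and a higher maize allele in most of them. In ear it had 2043 maize and 1442 teosinte reads and crosses from -0.58 to 1.51 with a median of 0.65. The maize allele was higher in 23 of 28 crosses in the ear, 26 of 29 in the leaf and 25 of 29 in the stem. Its log2 ratio was 0.56 ± 0.11 (adjusted p = 5.0e-04), 0.87 ± 0.13 (adjusted p = 2.0e-05) and 0.84 ± 0.16 (adjusted p = 6.1e-04).

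gln2 (GRMZM2G024104, 2148.4 kb above) encodes a glutamine synthetase and lies close to that gene. In ear it had 426 maize and 174 teosinte reads, crosses between 0.21 and 1.90, and a log2 ratio of 1.31 ± 0.28 (adjusted p = 0.0052). All 8 crosses with 20 or more reads had more maize reads. In leaf its ratio was 0.34 ± 0.29 (adjusted p = 0.50) and in stem 0.68 ± 0.26 (adjusted p = 0.093). gln2 was thus called in the ear alone, and its difference between ear and leaf was not called (-0.93 ± 0.31, adjusted p = 0.075).

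Other members with a higher maize allele were GRMZM2G031501, GRMZM2G443453, GRMZM2G159149, GRMZM2G133633, GRMZM2G046966 and GRMZM2G014951. GRMZM2G031501 (4258.4 kb below) had log2 ratios of 0.75 in ear, 0.77 in leaf and 1.20 in stem, each called. GRMZM2G443453 was called in leaf (0.72) and stem (0.69), GRMZM2G159149 in ear (1.13), and GRMZM2G133633 (0.91) and GRMZM2G046966 (0.75) in stem. GRMZM2G159149 had 6 ear crosses with 20 or more reads, from -1.75 to 2.34, and GRMZM2G133633 had 3 in stem. The call of GRMZM2G159149 was kept in 11 of 19 alternatives and that of GRMZM2G133633 in 15 of 19. GRMZM2G443453 kept its call in 19 of 21 in leaf and in 8 of 21 in stem. GRMZM2G014951 was called in leaf (1.41) and stem (1.36), but no more than 3 of its crosses had 20 reads and in stem none of these had more maize reads, so its value rests on crosses of low depth. Without the 11 libraries the leaf call of GRMZM2G031501 (adjusted p = 0.077) and the stem call of GRMZM2G046966 (adjusted p = 0.069) were lost.

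The teosinte allele was higher at lox3 (GRMZM2G109130, 1542.6 kb below), a lipoxygenase gene. It had 223 maize and 612 teosinte reads in the ear, 98 and 885 in the leaf and 300 and 1089 in the stem. More teosinte reads were seen in 6 of 7 crosses in the ear, 4 of 6 in the leaf and 9 of 9 in the stem. Its log2 ratio was -1.42 ± 0.33 (adjusted p = 0.0087), -2.60 ± 0.73 (adjusted p = 0.023) and -2.12 ± 0.39 (adjusted p = 0.0017). DESeq2 called it in no tissue, and the ear and leaf calls were lost when the F1s of TIL09 were left out.

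The paralog lox4 (GRMZM2G109056), 1523.6 kb below tb1 and next to lox3, had 1187 maize and 1147 teosinte reads in ear. Its log2 ratios were -0.19 ± 0.20, -0.23 ± 0.30 and -0.25 ± 0.25, none of them called. The genes are close paralogs, and whether reads were split between them was not tested.

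HK1b1 (GRMZM2G155767, sites 268951533 to 268956729, 3207 kb above) is a histidine kinase of the cytokinin receptor family. In ear it had 1787 maize and 2800 teosinte reads, and each of 25 crosses had more teosinte reads, with log2 ratios between -1.30 and -0.06 and a median of -0.59. Its fitted ratio was -0.63 ± 0.08 (adjusted p = 2.3e-06) in ear. In leaf it was -0.21 ± 0.10 (adjusted p = 0.16) and in stem -0.31 ± 0.13 (adjusted p = 0.11), with 17 of 26 crosses toward teosinte in both. No ear cross of HK1b1 lay on the maize side. Its leaf ratio was -0.29 without the 11 libraries, and called (adjusted p = 0.037).

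GRMZM2G100650 (1586.8 kb above) was called toward teosinte in each tissue, at -2.64 in ear, -1.47 in leaf and -2.61 in stem. It had few reads, 16 maize and 128 teosinte in the ear, 119 and 328 in the leaf and 30 and 199 in the stem. GRMZM2G050136 (3292 kb below), also named after its values were seen, had 1 maize and 236 teosinte reads in the ear, 0 and 171 in the leaf and 0 and 249 in the stem. Nearly all of these reads came from 3 crosses, each with CML103 as the maize parent. AC211401.4_FG003 was called in stem alone (-0.36 ± 0.09, adjusted p = 0.013), where 18 of 19 crosses had more teosinte reads. GRMZM2G455433 was called in leaf alone (-0.73 ± 0.25, adjusted p = 0.049).

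Among members with a known name, kn1 (GRMZM2G017087, 5597.3 kb above), the knotted-like homeobox gene of the shoot meristem, was balanced. It had 9722 maize and 9765 teosinte reads in ear and 4911 and 4772 in stem, with log2 ratios of 0.08 ± 0.17 and 0.11 ± 0.18. Ki3xTIL09 was the exception, with 161 maize and 3 teosinte reads in ear and 112 and 0 in stem. The related gene knox3 (GRMZM2G000743) had log2 ratios of 0.06 ± 0.20 in ear and -0.18 ± 0.34 in stem.

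The alpha tubulin gene GRMZM2G153292, which matches TUA1 or TUA2, was the deepest named member, with 194451 maize and 184707 teosinte reads in ear. Its log2 ratios were 0.06 ± 0.06, 0.15 ± 0.08 and 0.08 ± 0.07, none of them called. Also uncalled in each tissue where they had depth were the leaf permease LPE1 (GRMZM5G858417), the CCAAT-binding factor CA2P16 (GRMZM2G091964), the basic helix-loop-helix factor bHLH137 (GRMZM2G019806), SEC14p (GRMZM2G704053), chr101a (GRMZM2G071025) and ark (GRMZM2G023110). Their log2 ratios ran from -0.53 for bHLH137 in stem to 0.42 for chr101a in leaf. Of the named regulators, DWARF8, kn1, knox3, CA2P16 and bHLH137 thus had no called difference, and HK1b1 had one in ear, and without the 11 libraries also in leaf.

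**Figure D4:**
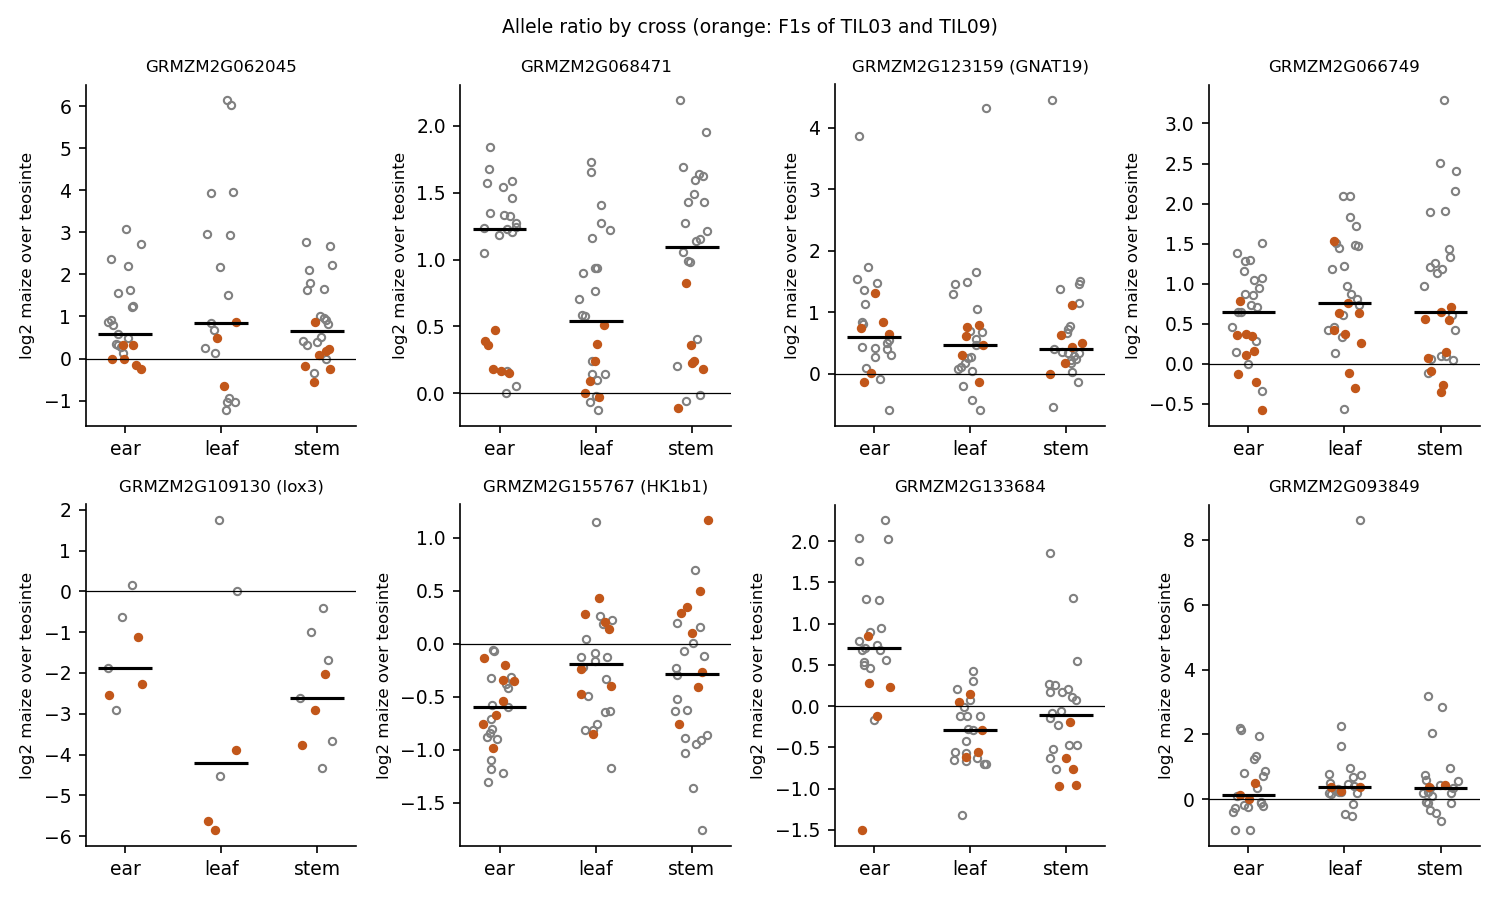
Log2 ratio of maize to teosinte reads of 8 flanking genes, 1 point per cross with 20 or more reads, in ear, leaf and stem, with crosses of TIL03 and TIL09 in orange and a bar at the median over crosses. GRMZM2G068471 has its orange points at the low end in ear, and all 25 ear points of HK1b1 lie below 0.

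Some members had an extreme ratio in single crosses. Among pairs of a member and a cross with 50 or more reads, 26 of 2104 in the ear (1.24%), 38 of 2086 in the leaf (1.82%) and 36 of 2234 in the stem (1.61%) had a ratio of 8-fold or more, against 2.42%, 2.63% and 2.52% of pairs over all genes. The shares beside tb1 lay below those over all genes, which is given as a description with no test. There were 60 such pairs in any tissue, from 34 members, and 13 of them appeared in each tissue, 14 in 2 and 33 in 1. None had opposite signs between tissues, which was counted over members only. Oh43xTIL15, the cross shifted toward maize, held 13 of the 60, and the next crosses, CML103xTIL03 and CML103xTIL11, held 5 each. Leaving out the 11 libraries gave 45 pairs from 23 members, and the shares were 1.00%, 1.33% and 1.18% of pairs, against 2.44%, 2.58% and 2.51% over all genes.

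GRMZM2G078316 (5129.8 kb above), named after its values were seen, showed extreme crosses in both directions. In ear Oh43xTIL15 had 130 maize and 1 teosinte reads and CML103xTIL14 had 64 and 0, while Oh43xTIL11 had 0 and 51 and Ki3xTIL11 had 0 and 51. The median over its 17 ear crosses was 0.11, and its fitted ratio was 0.27 ± 0.46 (adjusted p = 0.75). This gene was thus balanced over the crosses while in single crosses 1 allele had few or no reads.

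GRMZM5G819320 (421.4 kb above), also named after its values were seen, had 3 maize and 164 teosinte reads in CML103xTIL03 and 19 and 233 in CML103xTIL11 in ear. In leaf those crosses had 0 and 242 reads and 45 and 437. Over 27 ear crosses its median was -0.13. The third cross of the same maize inbred, CML103xTIL14, had 12 and 14 reads in ear and 23 and 41 in leaf, so the low ratio was not seen in each cross of CML103.

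The second question was whether the F1s of TIL03 and TIL09 differ from the other F1s, with the teosinte inbred as the unit (2 against 7). No member was called in any tissue. In ear 0 of 154 members passed an adjusted p of 0.05 in edgeR's quasi-likelihood test, against 0.0113% of all genes (2 genes), and DESeq2 called 2. In leaf 0 of 152 passed, against 0.0165% of all genes, and in stem 0 of 160, against 0.0163%, and DESeq2 called 0 in both. The shares over all genes under DESeq2 are not given here. The count was again 0 in each tissue without the 11 libraries. At an unadjusted p under 0.05 the counts were 7 in ear (4.55%), 8 in leaf (5.26%) and 4 in stem (2.50%), beside 4.07%, 4.17% and 3.86% of all genes. In simulated counts with the same groups the test recovered 0% of genes with a log2 difference of 1 and 95% of genes with a difference of 3, so differences of moderate size were not detectable.

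Among members with 20 or more reads in each group, the maize to teosinte ratio was lower in F1s of TIL03 and TIL09 for 86 of 141 (61.0%) in the ear, 91 of 142 (64.1%) in the leaf and 90 of 145 (62.1%) in the stem. Over all genes the shares were 54.2%, 53.9% and 54.4%. The median difference was -0.14, -0.16 and -0.10 on the log2 scale over members and -0.04 in each tissue over all genes. TIL15, 1 of the 7 other inbreds, was measured only in Oh43xTIL15, which was shifted toward maize over these genes. Without the 11 libraries, which leaves 6 other inbreds, the ratio was lower for 79 of 138 (57.2%) in the ear, 84 of 142 (59.2%) in the leaf and 75 of 143 (52.4%) in the stem, against 53.5%, 51.0% and 51.6% of all genes. The median difference over members was then -0.05, -0.08 and -0.04, beside -0.03, -0.01 and -0.02 over all genes, so much of the imbalance depends on these libraries. Neighbouring genes and tissues share the same plants or parents, so these shares are a description.

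For tb1, no member here, the contrast was read in ear and stem. In ear the other F1s had 336 maize and 219 teosinte reads in crosses of Oh43 and 565 and 229 in crosses of other maize inbreds. The F1s of TIL03 and TIL09 had 200 and 222 reads with Oh43 and 46 and 46 with other maize inbreds. The log2 difference for tb1 was -1.09 ± 0.36 in the same edgeR fit (unadjusted p = 0.015). In stem, at lower depth, the other F1s had 61 and 43 reads with Oh43 and 108 and 59 with other maize inbreds, and the F1s of TIL03 and TIL09 had 28 and 15 and 5 and 2. The stem difference was 0.39 ± 0.65 (unadjusted p = 0.56), so the lower ratio in F1s of TIL03 and TIL09 was seen in ear and not in stem, and a test of ear against stem was not made.

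The members with the smallest p values in the contrast were few and differed by tissue. GRMZM2G068476 (3573.4 kb below) had ear log2 ratios of -0.48 in F1s of TIL03 and -0.49 in F1s of TIL09, while 6 other inbreds lay between -0.01 and 0.48. The groups did not overlap, and the fitted difference was -0.64 ± 0.17 (unadjusted p = 0.0049). By cross, W22xTIL03 was the lowest, at -5.12. In leaf and stem its differences were -0.13 ± 0.62 and -0.25 ± 0.41.

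GRMZM2G046966 (3280.6 kb above) was higher in F1s of TIL09 and had no value for TIL03. Its log2 ratio was 2.74 in leaf and 3.27 in stem for TIL09, and 6 other inbreds lay between -0.67 and 1.08 in leaf and between -0.20 and 1.30 in stem. The fitted differences were 2.63 ± 0.67 (unadjusted p = 0.0025) and 2.76 ± 0.65 (unadjusted p = 0.0028). These values describe 1 inbred and not the pair.

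For GRMZM2G068471 the difference was -0.86 ± 0.35 in ear (unadjusted p = 0.031), -0.60 ± 0.40 in leaf and -0.69 ± 0.41 in stem, and TIL25 lay with TIL03 and TIL09 as given above. GRMZM2G062045, the maize-biased gene 297.2 kb from tb1, had a difference of -0.92 ± 0.47 in ear (unadjusted p = 0.078) and -1.07 ± 0.57 in stem (unadjusted p = 0.089). In ear its log2 ratio was 0.36 for TIL03 and 0.02 for TIL09, and the other 7 inbreds lay between 0.30 and 2.10, so TIL03 overlapped them. The chromatin gene chr101a had its lowest inbreds in TIL03 and TIL09 in leaf, at -0.49 and -0.62 against 0.59 to 1.31 in 5 others (difference -1.44 ± 0.47, unadjusted p = 0.012). GRMZM2G014951 and GRMZM2G100650, with differences of -2.90 and 1.63 in leaf, had 35 and 49 reads in F1s of TIL03 and TIL09.

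The number of segregating sites near tb1 gives a view of the haplotypes that uses no read count. Within 0.2 Mb of tb1, a distance added after seeing the data, crosses of TIL03 had 0 to 2 sites and crosses of TIL09 had 1 to 4 when the maize parent was not Oh43, and 18 and 25 sites with Oh43. The other inbreds had 8 to 33 sites, apart from TIL01 with 2 to 4. Few sites separated TIL03 and TIL09 from most maize inbreds there, and the same held for TIL01.

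Per 1000 sites of the cross, the log2 number of sites within 1 Mb was -0.20 for TIL03 and TIL09 and -0.19 for the other 7 inbreds, a difference of -0.01 (exact permutation test, two-sided, p = 0.889). Within 0.5 Mb the difference was -0.69 (p = 0.167, exact) and within 0.2 Mb it was -1.87, a ratio of 0.274 (p = 0.111, exact). Leaving out Oh43 crosses, also added after seeing the data, left 5 other inbreds. The difference was then -2.34 at 0.2 Mb, a ratio of 0.198, with p = 0.0952 by the same exact test. That is the smallest p that 21 ways of choosing the inbreds allow. The full design of 36 ways cannot go below 0.0556, and no difference in sites passed 0.05.

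**Figure D5:**
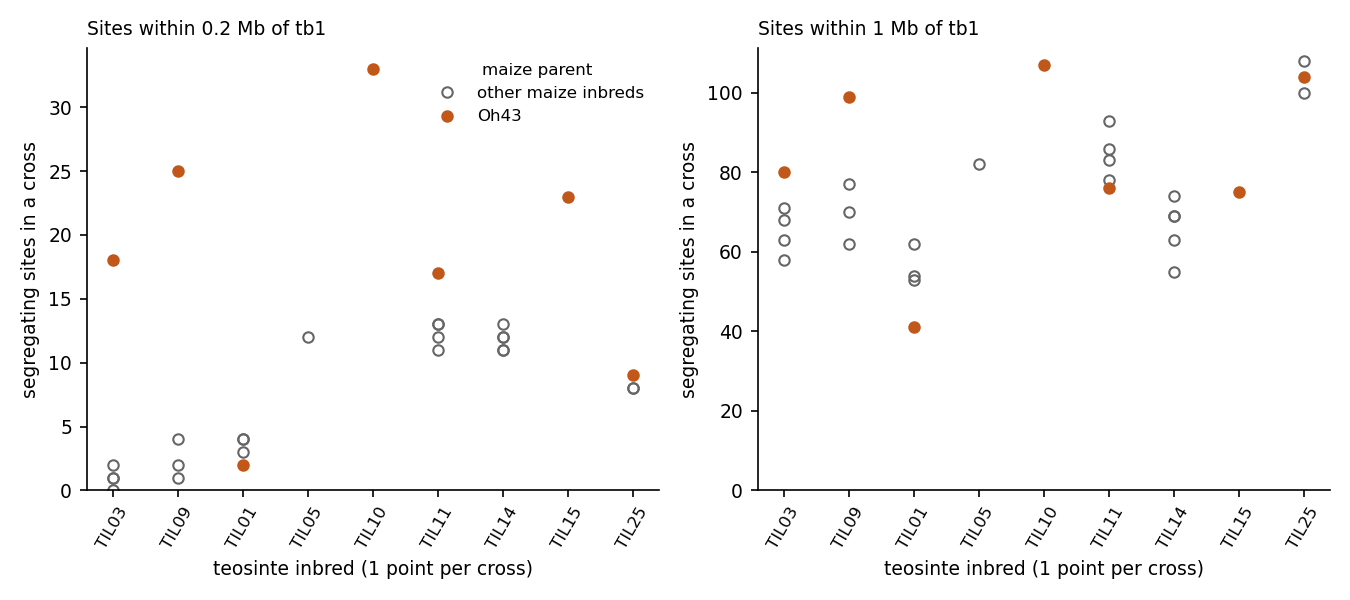
Number of segregating sites within 0.2 Mb (left) and 1 Mb (right) of tb1, 1 point per cross, by teosinte inbred, with crosses of Oh43 in orange. TIL03 and TIL09 have at most 4 sites within 0.2 Mb unless crossed to Oh43, and at 1 Mb they lie among the other inbreds.

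This also limited which members could be read in those F1s. Of the 22 members within 1 Mb of tb1, crosses of TIL03 and TIL09 had sites in 11 to 16, and other crosses in 14 to 19.

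The third question was whether the allele ratio of a member differs between tissues within crosses. Between ear and leaf 11 of 145 members (7.59%) were called, against 6.28% of all genes. Between ear and stem 6 of 151 (3.97%) were called, against 2.38%, and between leaf and stem 5 of 148 (3.38%), against 4.57%. The shares lay near the background. In bulk tissue, a different mix of cells and a different ratio within each cell cannot be told apart. Without the 11 libraries the counts were 11, 8 and 5, and the shares over all genes for that setting are not given.

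GRMZM2G133684 (sites 261664041 to 261666558, 4081.9 kb below) had a higher ratio in ear than in leaf and stem. In ear it had 1279 maize and 845 teosinte reads, with more maize reads in 20 of 23 crosses and a log2 ratio of 0.71 ± 0.17 (adjusted p = 0.0043). In leaf it had 4671 and 5611 reads, with more teosinte reads in 18 of 24 crosses and a ratio of -0.30 ± 0.10 (adjusted p = 0.052), and in stem the ratio was -0.15 ± 0.12, so only the ear bias was called. Leaf minus ear was -0.93 ± 0.16 (adjusted p = 2.0e-04) and stem minus ear was -0.87 ± 0.17 (adjusted p = 0.0019). Without replicate 1 the difference between stem and ear was -0.71 and no longer called (adjusted p = 0.32).

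HK1b1 moved the opposite way, from teosinte-biased in ear toward balance elsewhere. Leaf minus ear was 0.48 ± 0.09 (adjusted p = 9.1e-04) and stem minus ear was 0.43 ± 0.10 (adjusted p = 0.0090). Without replicate 2 both calls of HK1b1 were lost (adjusted p = 0.070 and 0.14), and without replicate 1 the stem call was lost (adjusted p = 0.40). Its leaf call was kept without replicate 1 (adjusted p = 0.026).

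GRMZM2G104542 (4790.3 kb below), named after its values were seen, had log2 ratios of 0.72 in the ear, -0.34 in the leaf and -0.29 in the stem, and its differences from ear were -0.94 ± 0.21 (adjusted p = 0.0051) and -0.92 ± 0.21 (adjusted p = 0.010). GRMZM2G176735 (2850.6 kb above) had more maize reads in 14 of 20 crosses in leaf and in 3 of 20 in stem, and stem minus leaf was -0.38 ± 0.06 (adjusted p = 3.7e-04). GRMZM2G155323 (2214.5 kb above) had a stem minus leaf difference of -0.26 ± 0.07 (adjusted p = 0.015), which was -0.02 without replicate 1 (adjusted p = 0.99) and -0.47 without replicate 2 (adjusted p = 0.38). The difference of GRMZM2G176735 was no longer called without replicate 1 or without replicate 2 (adjusted p = 0.096 and 0.065), and that of GRMZM2G155323 rested on replicate 1.

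Of the members with a symbol, lox3 and Opaque10 were also called between ear and leaf, lox3 at -1.55 ± 0.46 (adjusted p = 0.039) and Opaque10 at 0.84 ± 0.26 (adjusted p = 0.039). GRMZM2G068471 was less maize-biased in leaf than in ear, by -0.38 ± 0.10 (adjusted p = 0.017), and than in stem, with a stem minus leaf difference of 0.36 ± 0.11 (adjusted p = 0.046). The first of these was lost without replicate 1 or 2 (adjusted p = 0.30 and 0.056), and the second without replicate 1, without replicate 2 or without the 11 libraries (adjusted p = 0.54, 0.092 and 0.087). Of all 22 calls between tissues, 1, the leaf minus ear difference of GRMZM2G133684, was kept both without replicate 1 and without replicate 2, and 2 were kept with no allele by cross term.

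Last, the ratio between the parents was set beside that in the F1s, since it adds trans differences to cis ones. The median parent log2 ratio over members was 0.04 in the ear, 0.11 in the leaf and 0.05 in the stem. Across members with both values, the F1 and parent ratios had a Pearson correlation of 0.80 in ear (n = 152 genes), 0.86 in leaf (n = 145) and 0.77 in stem (n = 152), and Spearman correlations of 0.43, 0.31 and 0.50. Genes are not independent replicates, and both ratios are read at the same sites. Among members called in the F1s with a parent value, 20 of 20 in the ear, 15 of 16 in the leaf and 15 of 16 in the stem had the same sign in the parents. The signs were counted over members only, so whether this differs from all genes is not shown. For GRMZM2G068471 the parent log2 ratio was 0.98 in the ear, 0.20 in the leaf and 0.80 in the stem, and for HK1b1 it was -0.04, 0.15 and -0.74, so in the ear the parents of HK1b1 did not show the bias of its F1s.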

How the data were processed

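Per the labels and the study's methods, polyA RNA was sequenced with strand-specific libraries, variants of each inbred were called from genomic reads on the B73 AGPv2 genome and placed into the B73 transcripts, sites that segregate were found by comparing the parents' transcripts, and only perfect Bowtie alignments of RNA reads to both were kept. The deposited values are counts of reads per allele at each segregating site in each sample, neither normalized nor filtered here. Of 448 deposited samples, 360 are F1 samples (180 libraries in lanes, summed) and 88 are parent samples. The 8 libraries of Mo17xTIL25 and CML103xTIL25, which the study does not list, were left out.

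Counts were summed over the sites of a gene. Alleles were compared with edgeR 4.0.16 (R 4.3.3), quasi-likelihood F-test, cross as block, equal library sizes for both alleles of a cross, and Benjamini-Hochberg adjustment over all genes with 100 or more F1 reads in the tissue. "Called" means an adjusted p under 0.05. The SE of a fitted log2 ratio is its size divided by the square root of the F statistic. The contrast of TIL03 and TIL09 used sums per teosinte inbred, and the tissue contrast used allele by cross terms. All tests were two-sided. An exact binomial test on summed reads, smaller tail doubled, used Storey q-values at 0.005. Values by cross or inbred are log2 ratios with 0.5 reads added to each allele, for 20 or more reads. Parent counts were divided by the parent's total at the sites of the cross and carry no test. DESeq2 1.42.0, TMM scaling, other depth minimums, the deepest site alone, each inbred or replicate left out and a replicate block were alternatives. Leaving out the 11 libraries, the 0.2 Mb window and leaving out crosses of Oh43 from the site counts were added after seeing the data. On simulated counts of the 17679 ear genes, the test of alleles recovered 92% of 200 genes changed by 1 on the log2 scale with 6 unchanged genes called, and the binomial test 89.5% with 0. For the test of alleles each simulated cross had its own independent effect, while the real crosses share parents. For the binomial test the simulation held no variation between crosses, so its 0 does not show how that test behaves under such variation. The tissue test recovered 93.5% of 200 among 2000 genes, with 7 unchanged genes called. That simulation gave both tissues of a cross the same cross effect. It held no variation between tissues within a cross, so it does not show how the test behaves under such variation. Python 3.11.15, numpy 2.4.6, pandas 2.3.3, scipy 1.17.1 and matplotlib 3.10.9 were used.

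Named genes are the 3 members nearest tb1 on each side, in each tissue the 4 called members with the largest ratio toward each allele and reads in 10 or more crosses, the 3 with the smallest p in the contrast of TIL03 and TIL09 in each tissue, the 2 with the smallest p among those called in each pair of tissues, and members with a gene symbol. The members and these lists were chosen with earlier results of these data known. Symbols came from the RefSeq table or the study, and 104 of 165 members had a RefSeq entry. ZmSh1.1, with a symbol from the study, is not among the 38 calls of named members counted under the alternatives. No genome of this build was used, so no sequence or exon structure is shown.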

Additional observations from a re-analysis of the deposited data

Results flagged for a closer look

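Among 13 groups of 4 to 7 values, 12 of crosses that share a maize parent in a tissue and 1 of the site densities of the other teosinte inbreds, 8 held a cross whose median log2 ratio over the flanking genes lay far from the others. For independent values the rule flags about 1 group in 20. The same crosses recur over tissues here, so the groups are not independent and their count is a description. Oh43xTIL15 was the highest of 7 crosses of Oh43 at 0.52 in ear (others -0.07 to 0.12), 0.51 in leaf (others -0.05 to 0.18) and 0.56 in stem (others -0.16 to 0.13). B73xTIL01 was the highest of 7 crosses of B73 at 1.02 in leaf (others -0.08 to 0.23) and 0.97 in stem (others -0.08 to 0.17). W22xTIL14 was the lowest of 5 crosses of W22 at -0.56 in leaf (others 0.00 to 0.06) and -0.50 in stem (others -0.02 to 0.11). W22xTIL01 was the lowest of the 5 in ear at -0.0653, where the others spanned only 0.00 to 0.0044. Apart from W22xTIL01, these are the crosses of the libraries that stand apart in the report.

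Genes whose allele ratio differed between tissues in edgeR's quasi-likelihood test were HK1b1 (GRMZM2G155767), with leaf minus ear 0.48 and stem minus ear 0.43 on the log2 scale, and GRMZM2G133684, with -0.93 and -0.87. Stem minus leaf was -0.38 for GRMZM2G176735 and -0.26 for GRMZM2G155323. Their errors and adjusted p values stand in the report.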

How the results depend on the processing

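No result reversed. For the count of called members (21 in ear, 18 in leaf, 17 in stem), a minimum of 1000 reads gave 12, 10 and 11, an FDR of 0.005 gave 9, 7 and 7, and the deepest site alone gave 11 in ear and 9 in leaf. With Mo17xTIL25 and CML103xTIL25 it was 11 in leaf and 11 in stem. Leaving out a replicate gave 16 to 16 in ear, 9 to 13 in leaf and 9 to 17 in stem. TMM scaling gave 19, 17 and 18 and DESeq2 21, 13 and 19. These counts are of members alone, and the shares over all genes under these settings are not given here. A minimum of 1000 reads and the deepest site also change how many members are tested. A lower count is thus not by itself a trait of these genes. Of 38 calls of named members, 8 held under all 21 alternatives at an FDR of 0.05 (GRMZM2G068471 and GRMZM2G066749 in each tissue, HK1b1 and GNAT19 in ear). GRMZM2G100650 held in leaf and stem under the 20 and 19 that could be run, its reads being under 1000. DESeq2 lost 14 of the 38.

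Replicate numbers do not pair the libraries in a fixed way. The difference between replicates 1 and 2 correlated over 0.1 between 2 tissues in 2 of 22, 5 of 22 and 7 of 26 crosses. These correlations ran from -0.21 to 0.59 for ear and leaf and from -0.59 to 0.23 for ear and stem. For leaf and stem they ran from -0.94 to 0.36. A value below 0 means that libraries with different numbers went together. Leaving out 1 replicate number can thus leave unlike libraries in the 2 tissues. With the library as unit (replicate block) the counts of called members were 47, 31 and 29. That setting takes libraries of 1 cross or teosinte inbred as independent, and its shares over all genes are not given here. It gave 14, 7 and 9 for the contrast of TIL03 and TIL09, which are thus not read as differences of these 2 inbreds. That contrast (0 in each tissue) gave 1, 2 and 2 with the cross as unit, 2, 1 and 2 with maize parent terms, 2 in ear with DESeq2, 1 in ear and 1 in stem for TIL03 alone, and 0 without either replicate. With 1 read as the minimum its ear fit could not be fitted.

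Between ear and leaf (11) the counts were 2 with no allele by cross term, 7 at 1000 reads, 2 at an FDR of 0.005 and 2 to 8 without a replicate. Between ear and stem (6) they were 0, with 1 at an FDR of 0.005 and 0 to 2 without a replicate, and between leaf and stem (5) they were 0, 1 and 0 to 0. The binomial counts fell to 43 in ear and 58 in stem with the deepest site, and without a replicate they were 56 to 66 in ear, 56 to 63 in leaf and 65 to 71 in stem. The median parent ratio without a replicate was 0.0414 to 0.0451 in ear, 0.0815 to 0.115 in leaf and 0.0385 to 0.102 in stem. Shares over all genes are not given for these counts, and the cause of these changes was not tested. Depth limits the calls of members with few reads, and 2 inbreds against 7 limit the contrast.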
